A study of Mus musculus with 4 samples.

Results

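The 10 genes described here are immediate early genes, out of the 32285 genes counted in each single-cell RNA library: Fos, Fosb, Jun, Junb and Jund (AP-1 subunits), Egr1, Egr2 and Egr3 (zinc finger factors), Ier2 and Dusp1. They were taken by symbol from both count matrices, and each symbol was found once in each matrix. The cells were sorted as hepatic CD4 T cells from livers of mice on a diet that induces steatohepatitis. One library came from WT mice. The other came from dKO mice, whose floxed alleles of both genes (Nr4a1 fl/fl and Nr4a2 fl/fl) are deleted by Cd4-Cre, a driver that is active in CD4 and CD8 T cells. Both groups were male mice fed the choline-deficient diet (60 kcal% fat, 0.1% methionine) for 8 weeks, and 2 mice were pooled per library. With 1 library per genotype there is no replicate, so no test between genotypes was possible. Every interval below is a 95% interval that covers counting error only.

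Immediate early genes are transcribed within minutes of a stimulus without new protein synthesis, mostly through factors already bound at their promoters. Fos and Jun family proteins pair through leucine zippers to form AP-1, and Egr proteins bind GC-rich sites. In T cells antigen receptor signalling through calcium and MAP kinases induces both groups, and Dusp1, a phosphatase of MAP kinases, is induced in the same wave and limits it. Tissue digestion, heat and sorting also induce these genes.

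The promoters are shown for 3 of the AP-1 genes (Fos, Jun and Junb), a choice made after their values were seen. RefSeq windows (GRCm38.p6) were found for 7 of the 10 genes. Each sequence is the 250 bases before the start on the gene's strand: Fos at chr12:85473640-85473889 (plus strand), Jun at chr4:95052223-95052472 (minus) and Junb at chr8:84978749-84978998 (minus). Capitals mark the motif TGACG (the core of a cyclic AMP response element), the heat shock factor units GAANNTTC, the CCAAT box and the TATA box written TATAAA.
Fos: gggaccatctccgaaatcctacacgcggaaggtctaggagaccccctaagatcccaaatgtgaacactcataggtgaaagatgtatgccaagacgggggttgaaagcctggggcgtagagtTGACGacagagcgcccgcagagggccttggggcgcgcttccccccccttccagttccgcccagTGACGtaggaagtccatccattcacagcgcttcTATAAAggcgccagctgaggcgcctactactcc
Jun: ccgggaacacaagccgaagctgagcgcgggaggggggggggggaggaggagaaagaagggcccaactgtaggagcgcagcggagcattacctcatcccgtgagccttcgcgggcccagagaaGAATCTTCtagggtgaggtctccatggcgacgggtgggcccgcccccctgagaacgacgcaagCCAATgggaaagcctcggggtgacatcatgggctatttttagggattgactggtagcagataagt
Junb: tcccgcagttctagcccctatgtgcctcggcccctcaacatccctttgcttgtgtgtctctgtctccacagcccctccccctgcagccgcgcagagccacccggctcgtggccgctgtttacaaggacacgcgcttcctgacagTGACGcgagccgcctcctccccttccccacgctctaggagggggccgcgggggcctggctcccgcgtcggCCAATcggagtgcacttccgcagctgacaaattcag
Motifs were searched on both strands, and besides those named above they were the full response element TGACGTCA, which contains the core, the AP-1 site TGAGTCA, heat shock units facing away from each other as TTCNNGAA, the Egr site GCGNGGGCG, the Sp1 site GGGCGG and the CArG box. Jun was the only one of the 7 genes with GAANNTTC, at bases -128 to -121, and 6.69% of all 32817 windows held that motif. The other orientation, TTCNNGAA, was found at -131 to -124 in a window of Egr2 and in 7.16% of all windows. Fos held TGACG at -129 to -125 and at -66 to -62, and Junb held it at -106 to -102. TGACG occurred in 17.7% of all windows. The full TGACGTCA was found in Dusp1 only, at -143 to -136, and in 1.55% of all windows. The CArG box, bound by serum response factor, was found in 4 of the 5 windows of Egr2, some of which overlap, and in 1.47% of all windows. A match describes letters in the window and not a bound site.

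Reads were counted from the 5′ end of transcripts, so the annotated start matters. In GENCODE M21 (GRCm38) Fos lies at chr12:85473890-85477273, Fosb at chr7:19302696-19310051, Jun at chr4:95049034-95052222, Junb at chr8:84974484-84978718, Egr2 at chr10:67535475-67542188, Egr3 at chr14:70077203-70082614, Ier2 at chr8:84661331-84662852 and Egr1 on chromosome 18. The GENCODE start of Jund (chr8:70698949-70700616) is 1210 bases downstream of the RefSeq start. Dusp1 (chr17:26505590-26562128) has an annotated span of 56539 bases that overlaps Ergic1 and 3 other genes, and its GENCODE start lies far upstream of the RefSeq start (-53656 bases). Whether intronic reads were counted is not given in the sources used here, so UMIs of Dusp1 may include reads from this span, and their part in the Dusp1 levels and ratios below was not tested. Jun overlaps Junos, Junb overlaps Prdx2 and Jund overlaps Gm11175, so reads in the shared bases may have been left uncounted or assigned to the other gene.

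After filtering, 10556 droplets and 23437516 UMIs (unique molecules) of the WT library and 17462 droplets and 37794986 UMIs of the dKO library were kept, with medians of 1679 and 1685 UMIs. The libraries shared 242 barcodes. Despite the CD4 sort, plasmacytoid dendritic cells (pDC; 1348 and 3318 droplets in WT and dKO) and myeloid cells (211 and 271) were present beside 6572 and 10625 T cells. T cell and pDC markers not used for gating were highest under their own names: 4 T cell genes (Cd28, Lat, Cd247, Cd6) summed to 1882 and 1643 CPM in T cells (CPM gives the UMIs of a gene relative to all UMIs of its class), and 5 pDC genes summed to 5002 and 4737 CPM in pDC against 19.4 and 68.7 CPM in T cells. The 5 myeloid genes not used for gating (Apoe, Adgre1, Cd68, Fcer1g, Tyrobp) summed to 16042 and 14194 CPM in myeloid cells, but they also reached 45.2% and 55.2% of that level in pDC, where Tyrobp was higher than in myeloid cells. The targeted genes went against the label: Nr4a1 was at 725 CPM in WT and 1905 CPM in dKO T cells and Nr4a2 at 203 and 439 CPM. The floxed exons are not given in the sources used here, and 5′ tags outside the deleted part check nothing. Foxp3 cells, described below, made up 3.49% of the WT and 16.5% of the dKO droplets. The text therefore refers to the library labelled WT and the library labelled dKO, and below "WT" and "dKO" name those libraries.

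The members did not share 1 order between pDC and T cells. Fos, Fosb and Jun were higher in pDC than in T cells, and Junb, Egr1, Ier2 and Dusp1 were lower, each by 1.5-fold or more in both libraries. That is 7 of the 8 members measured there (at least 20 UMIs over both sides and 10 CPM on 1 side). Of all genes tested 41.6% passed in either direction, 18% as higher and 23.6% as lower. Fos, the main partner of Jun proteins in AP-1, was at 978 CPM in pDC and 420 CPM in T cells of WT, and at 548 and 345 CPM in dKO, where it fell just under the fold (log2 0.53) when each cell's own CPM was averaged. Jun, which can also pair with itself, was at 1461 against 475 CPM in WT (3.08-fold; log2 1.62, 1.57 to 1.68) and at 831 against 375 CPM in dKO (2.22-fold; log2 1.15, 1.10 to 1.19). Fosb, a Fos paralog, was at 173 against 84.2 CPM in WT and at 171 against 53.4 CPM in dKO. So these 3 genes kept their direction in both libraries, while the size of the difference varied between them.

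Junb, the AP-1 subunit linked to T helper and regulatory T cell programmes, went the other way. It was at 3672 CPM in T cells and 800 CPM in pDC of WT, and at 2854 and 349 CPM in dKO (4.59-fold and 8.19-fold lower in pDC). Dusp1 was at 639 against 124 CPM in WT and at 971 against 162 CPM in dKO (5.16-fold and 5.98-fold lower in pDC). T cell transcripts, taken here as free RNA, were measurable in pDC. The 4 T cell genes above were there at 8.62% (WT) and 4.27% (dKO) of their T cell level, and the highest single gene at 12.1% and 7.07%. Junb in pDC was at 21.8% and 12.2% of its T cell level, Dusp1 at 19.4% and 16.7%, Egr1 at 32.7% and 41.0% and Ier2 at 40.2% and 44.9%. The part of free RNA in these levels was not tested. Jund, often described as the AP-1 subunit present without stimulation, was higher in pDC in both libraries but past 1.5-fold in WT only (2029 against 1209 CPM in WT, 2186 against 1780 CPM in dKO).

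The small myeloid class held the highest levels of Fos, Fosb, Egr2 and Egr3 in both libraries. Egr2, which in T cells is tied to anergy and in myeloid cells to macrophage differentiation, was at 56.6 CPM (36.6 to 83.5) in WT and 39.9 CPM (27.6 to 55.7) in dKO, against 3.44 and 3.83 CPM in T cells and 2.06 and 1.19 CPM in pDC. Over T cells that is 16.4-fold in WT and 10.4-fold in dKO. In T cells 5 myeloid genes held out of the gate were at 0.867% and 0.812% of their myeloid level, and Egr2 at 6.08% and 9.59%. The part of free myeloid RNA in the Egr2 level of T cells was not tested. Fos reached 1573 and 932 CPM in myeloid cells. Compared with T cells, Fos, Fosb and Egr2 were higher and Jund was lower in both libraries, which is 4 of 9 members measured, although Jund in WT fell just under the fold (log2 -0.57) with TMM scaling, a library scaling of edgeR. Of all genes 44.8% passed, 15.1% as higher and 29.7% as lower. Egr3, a relative of Egr2 induced by the T cell receptor, was at 24.9 CPM in WT and 9.38 CPM in dKO, each from few UMIs, and its interval in dKO overlapped that of the next class.

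**Figure D1:**
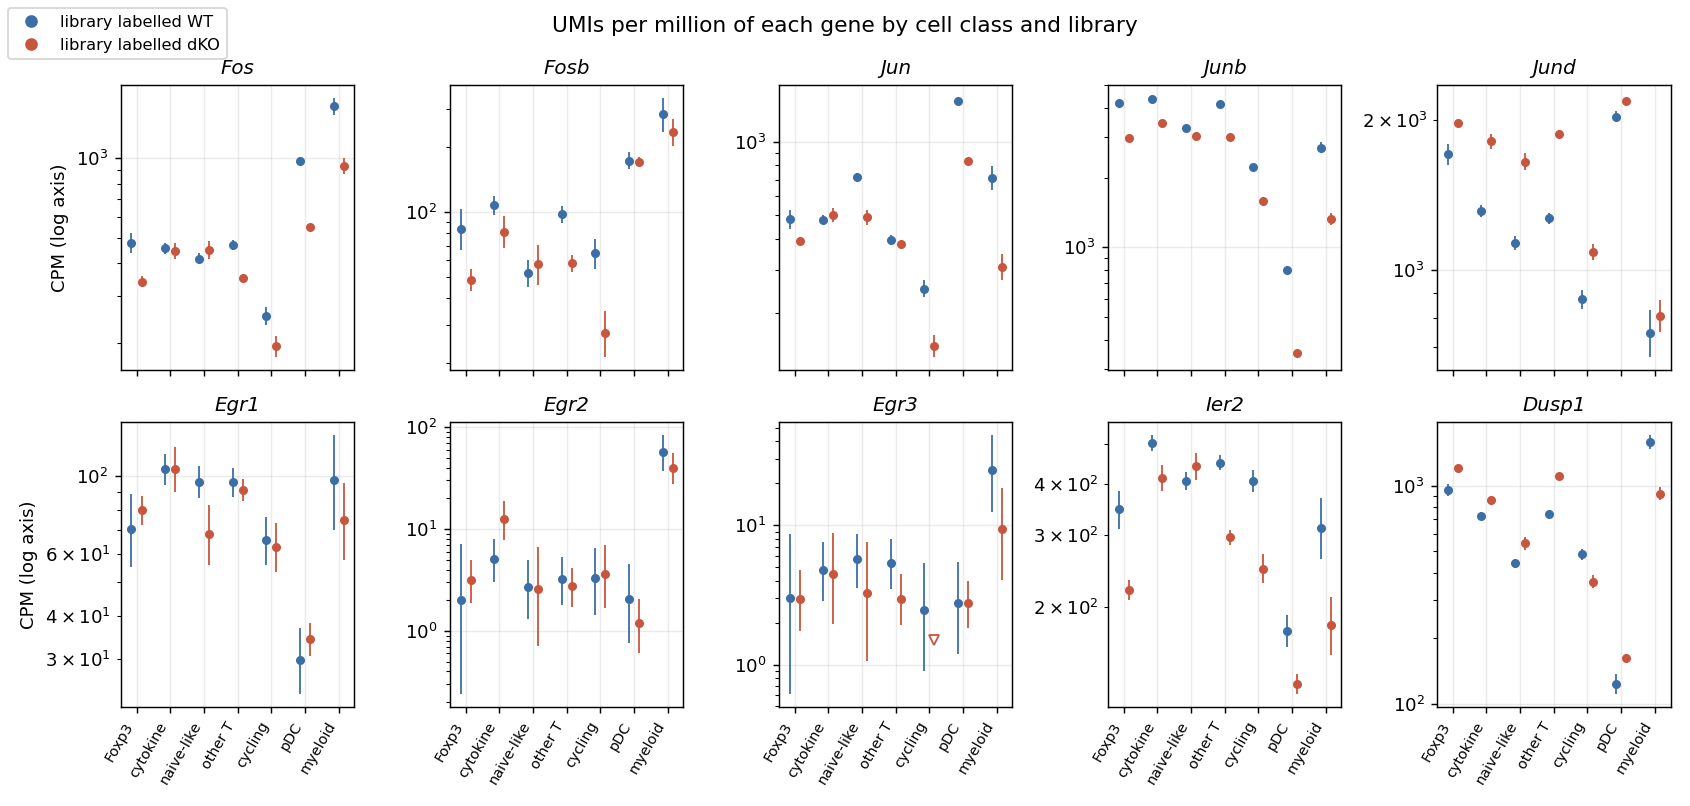
Level of each of the 10 genes in CPM (log axis) in 7 cell classes, for the library labelled WT and the library labelled dKO; points are sums over all cells of a class, bars are 95% Poisson intervals and the open triangle is the upper limit of a count of 0. Fos, Fosb and Jun are higher in pDC than in every T cell class of the plot, whereas Junb and Dusp1 are lowest in pDC.

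Among the T cell classes Fos, Jun, Junb and Jund were lowest in cycling cells of both libraries, the low-ribosomal class aside. T cells were split by UMIs of Foxp3 (368 and 2887 cells), of Ifng, Il17a or Il17f (cytokine class; 1482 and 947), of naive genes such as Ccr7 and Lef1 (naive-like; 1398 and 756) and of cell cycle genes (cycling; 548 and 483), with 2717 and 5515 other T cells and 59 and 37 cells of low ribosomal content. In cycling over other T cells, 5 of 8 members (Fos, Fosb, Jun, Junb and Dusp1) were lower in both libraries, where 5.68% of all genes were lower. Junb was at 2226 against 4151 CPM in WT and at 1592 against 3000 CPM in dKO (1.86-fold and 1.88-fold lower). Fos was at 253 against 470 CPM in WT and at 194 against 352 CPM in dKO. The cycling cells had the most UMIs per cell (median 3859 and 4693.5 after shallow cells were left out, against 1652 and 1439 in other T cells). Without the 5% of droplets with the most UMIs, 2 of 8 members passed the fold in both libraries (Junb and Dusp1), and with a wider Foxp3 class 3 did. Fosb in WT also fell under the fold (log2 -0.60 as reported) when each cell's own CPM was averaged (-0.43), with a stricter lineage gate (-0.55) and without droplets that held an Hspa1a or Hspa1b UMI (-0.40). The part of depth in the result was not tested beyond this.

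Foxp3 cells and cytokine cells did not differ by 1.5-fold in both libraries for any of the 8 members measured, where 6.8% of all genes did. In both libraries Ier2 was lower in Foxp3 cells (346 against 502 CPM in WT, 220 against 412 CPM in dKO). Ier2 passed 1.5-fold in both libraries, as 1 of 8 members, under TMM scaling, when each cell's own CPM was averaged and without droplets that held an Hspa1a or Hspa1b UMI. Dusp1 was higher in both classes than in naive-like cells. It was at 959, 727 and 440 CPM in Foxp3, cytokine and naive-like cells of WT and at 1200, 856 and 543 CPM in dKO. Foxp3 over naive-like cells thus gave 2.18-fold and 2.21-fold, and Dusp1 was the only member of 8 past 1.5-fold in both libraries there (14.4% of all genes in either direction, 10.6% as higher). Cytokine over naive-like cells gave 1.65-fold and 1.57-fold, again for Dusp1 alone (9.39% in either direction, 6.88% as higher). In both comparisons 1 of 8 members is close to the share of all genes. Jun was ordered differently in the libraries: in WT it was higher in naive-like cells (719 CPM) than in Foxp3 (483) and cytokine cells (481), and in dKO the naive-like (491) and cytokine (502) intervals overlapped. Egr1, an early target of T cell receptor signalling, was highest in cytokine cells of both libraries (104 and 105 CPM), with an interval that overlapped the next class in each.

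Between the libraries the members did not move as 1 group. In all T cells Fosb and Ier2 were lower and Dusp1 was higher in dKO by 1.5-fold or more, 3 of 8 measured. Of all genes 16.1% passed, 8.49% as higher and 7.6% as lower. Fosb was at 84.2 CPM (79.7 to 88.9) in WT and 53.4 CPM (50.2 to 56.7) in dKO. Ier2, a small nuclear protein of unclear biochemical role, was at 437 and 290 CPM (1.51-fold lower; log2 -0.59, -0.64 to -0.54). Dusp1 was at 639 and 971 CPM (1.52-fold higher; log2 0.60, 0.57 to 0.64). All 3 lay close to the fold and fell under it in some alternatives: Ier2 with TMM (log2 -0.56) and median of ratios scaling (-0.54), without the 5% of droplets with the most UMIs (-0.57) and with 1 cell per clonotype (-0.55), Fosb when each cell's own CPM was averaged (-0.56), and Dusp1 with a stricter lineage gate (0.58) and without the 20 most abundant genes in the totals (0.57). Jund was just under the fold at 1209 and 1780 CPM (1.47-fold higher) and passed it with TMM (log2 0.59) and median of ratios scaling (0.61) and when each cell's own CPM was averaged (0.60). Also under it were Junb at 3672 and 2854 CPM (1.29-fold lower), Jun at 475 and 375 CPM and Fos at 420 and 345 CPM. Egr1 was at 91.2 and 83.5 CPM (1.09-fold lower). Egr2 (3.44 and 3.83 CPM) and Egr3 (4.65 and 2.75 CPM) did not reach 10 CPM on either side and so did not count as measured. With this many UMIs even the 1.09-fold difference of Egr1 had an interval that excludes equal levels. The share of all genes with such intervals was not taken. The intervals do not hold the variation between mice or library preparations. The median over all genes tested was close to 0 (log2 -0.01), and over the 8 members it was -0.31.

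The same directions were seen in most T cell classes, with exceptions. In Foxp3 cells Fosb (83.5 and 48.5 CPM in WT and dKO) and Ier2 (346 and 220 CPM) were lower, which is 2 of 8 members. Of all genes 23.3% passed in these cells, 11.2% as higher and 12.1% as lower. Without droplets that held an Hspa1a or Hspa1b UMI 0 members passed in these cells, with Fosb (log2 -0.57) and Ier2 (-0.54) just under the fold, and with median of ratios scaling 1 passed, as Ier2 fell just under it. In other T cells Fosb (97.7 and 58.0 CPM) and Ier2 (450 and 296 CPM) were lower, again 2 of 8 (17.8% of all genes in either direction, 8.22% as lower). There Ier2 fell under the fold with TMM and with median of ratios scaling (log2 -0.57 each), with 1 cell per clonotype (-0.56) and when each cell's own CPM was averaged (-0.58), and in the last Fosb did too (-0.57). Jund and Dusp1 passed as higher with both scalings and with averaged CPM (0.60 to 0.66). In cycling cells Fosb, Jun and Ier2 were lower, 3 of 8 (18.9% of all genes in either direction, 11.9% as lower), and Jun was at 252 CPM in WT and 148 CPM in dKO. Dusp1 was lower in dKO in this class as well (485 and 363 CPM), against its direction in the other T cell classes. In naive-like cells 0 of 8 members passed 1.5-fold, where 15.1% of all genes did. Jun passed as lower in dKO without the 5% of droplets with the most UMIs (log2 -0.60) and with a stricter lineage gate (-0.60), and Jun (-0.84) and Egr1 (-0.70) without droplets that held an Hspa1a or Hspa1b UMI. In the data as reported Jun was at 719 and 491 CPM (1.46-fold lower) and Jund at 1131 and 1648 CPM (1.46-fold higher), while Fos (417 and 450 CPM), Fosb (52.2 and 57.3 CPM) and Ier2 (406 and 441 CPM) had intervals of the ratio that include 1. In cytokine cells Egr2 was at 5.05 CPM (3.04 to 7.89) in WT and 12.4 CPM (7.76 to 18.8) in dKO, the only member of 9 past the fold (18.6% of all genes in either direction, 6.9% as higher). It rested on few UMIs, 19 from 19 droplets in WT and 22 from 11 droplets in dKO. Without the 5% of droplets with the most UMIs, and when each cell's own CPM was averaged, 0 members passed in this class. Egr2 reached 10 CPM in dKO only, so it counted as measured through the library where it was higher. An alternative gave a ratio only where Egr2 still counted as measured. The log2 ratios of those 8 alternatives (1.22 to 1.55, 1.29 as reported) therefore do not show that the difference is stable. Jund was higher and Junb lower in dKO in each of these 5 classes.

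In pDC 3 of 8 members were lower in dKO (10.3% of all genes passed in either direction, 6.59% as lower). Fos was at 978 CPM in WT and 548 CPM in dKO (1.78-fold; log2 -0.84, -0.90 to -0.77), Jun at 1461 and 831 CPM (1.76-fold) and Junb at 800 and 349 CPM (2.30-fold). Fosb (173 and 171 CPM) had an interval that includes no difference, and Jund was at 2029 and 2186 CPM. The pDC of the 2 libraries differed in depth (median 1478 and 2913.5 UMIs), and free T cell RNA was lower in the dKO pDC as given above. In pDC thinned to 1000 UMIs, Jun in the shallowest and the deepest of 3 equal depth groups was at 1078 and 713 CPM in dKO. Whether depth or free RNA has a part in the difference between the libraries was not tested. In myeloid cells Fos, Jun, Junb, Ier2 and Dusp1 were lower in dKO, 5 of 9 members. Of all genes 26.2% passed in that class, 13.2% as lower. Jun was at 713 and 308 CPM (2.31-fold lower), Junb at 2695 and 1331 CPM (2.02-fold) and Dusp1 at 1582 and 918 CPM (1.72-fold), so that Dusp1 was lower there while it was higher in T cells. The myeloid class was not alike in the libraries. The 4 T cell genes were there at 12.3% (WT) and 6.57% (dKO) of their T cell level, and S100a8, a neutrophil gene, was at 20.4 CPM in WT and 5298 CPM in dKO. Without droplets that held an S100a8 or S100a9 UMI (6 and 20 droplets), 5 members passed the fold as before.

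**Figure D2:**
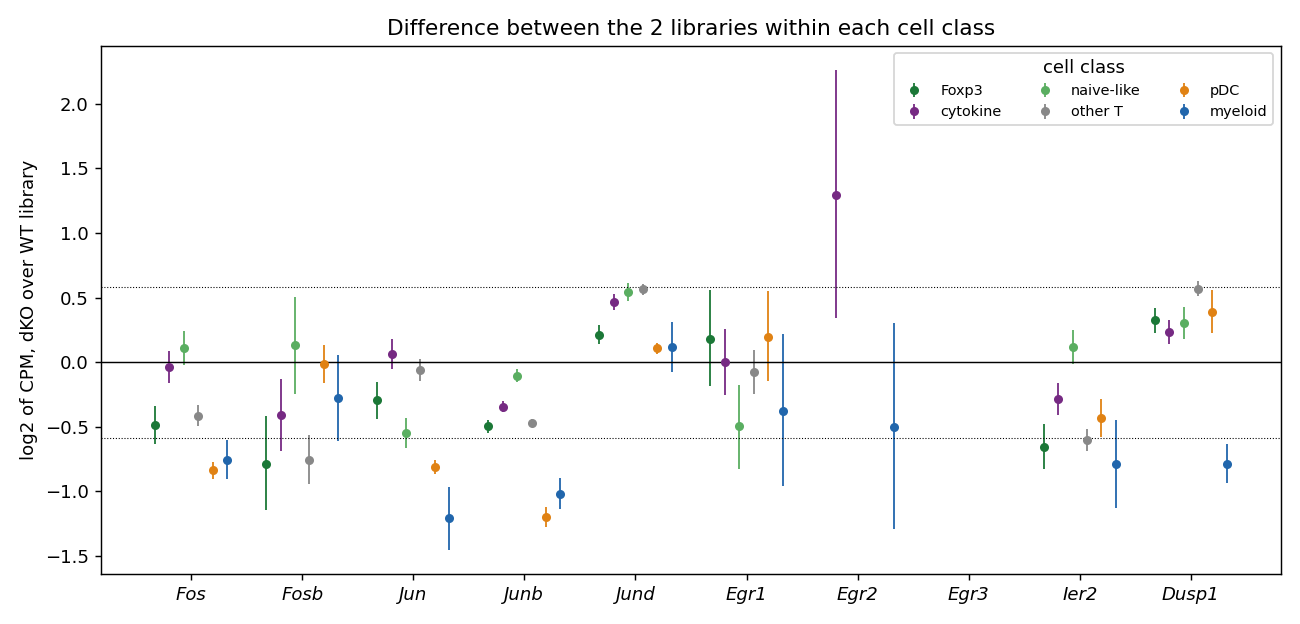
Log2 ratio of CPM in the dKO library over the WT library for each gene in 6 cell classes, with 95% intervals for counting error. Dotted lines mark 1.5-fold, and genes under the minimum of UMIs or of CPM in a class are left out. Jund lies above 0 in every class of the plot and Junb below 0, whereas Dusp1 lies above 0 in the T cell classes drawn (cycling cells are not) and pDC and below 0 in myeloid cells.

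To compare shares of cells, UMIs were drawn at random down to 1000 per cell. Shallower cells were dropped, which removed 633 and 1940 T cells, 385 and 12 pDC and 51 and 25 myeloid cells (WT and dKO). Junb was found in most T cells (88.9% in WT, 82.6% in dKO; 95.1% and 88.9% before thinning), as was Jund (64.7% and 75.1%; 82.2% and 85.9% before). Fos was found in 28.2% and 21.9% of T cells (44.1% and 30.3% before), Jun in 28.1% and 19.8% (41.8% and 27.6%) and Dusp1 in 39.6% and 50.2% (58.0% and 64.3%). Egr1 was found in 7.85% and 6.52%, and Egr2 and Egr3 in 0.505% of cells or fewer. For Junb, Jund, Fos, Jun, Dusp1 and Egr1 the shares differed between the libraries in the directions seen in the sums. With this many cells the intervals are narrow, and they cover counting error only. As a reference for free RNA, the macrophage gene Apoe had a UMI in 2.95% and 3.52% of T cells, above the share of Egr2 and Egr3 but below that of the other members. In pDC Jun was found in 60.5% and 36.9% of cells (70.5% and 59.6% before), while the T cell gene Cd28 was found in 5.82% and 2.12%. Egr1 was found in 2.39% and 2.48% of pDC, and Lat, another T cell gene, in 6.44% and 2.69%. The part of free RNA in these shares, in T cells or in pDC, was not tested.

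**Figure D3:**
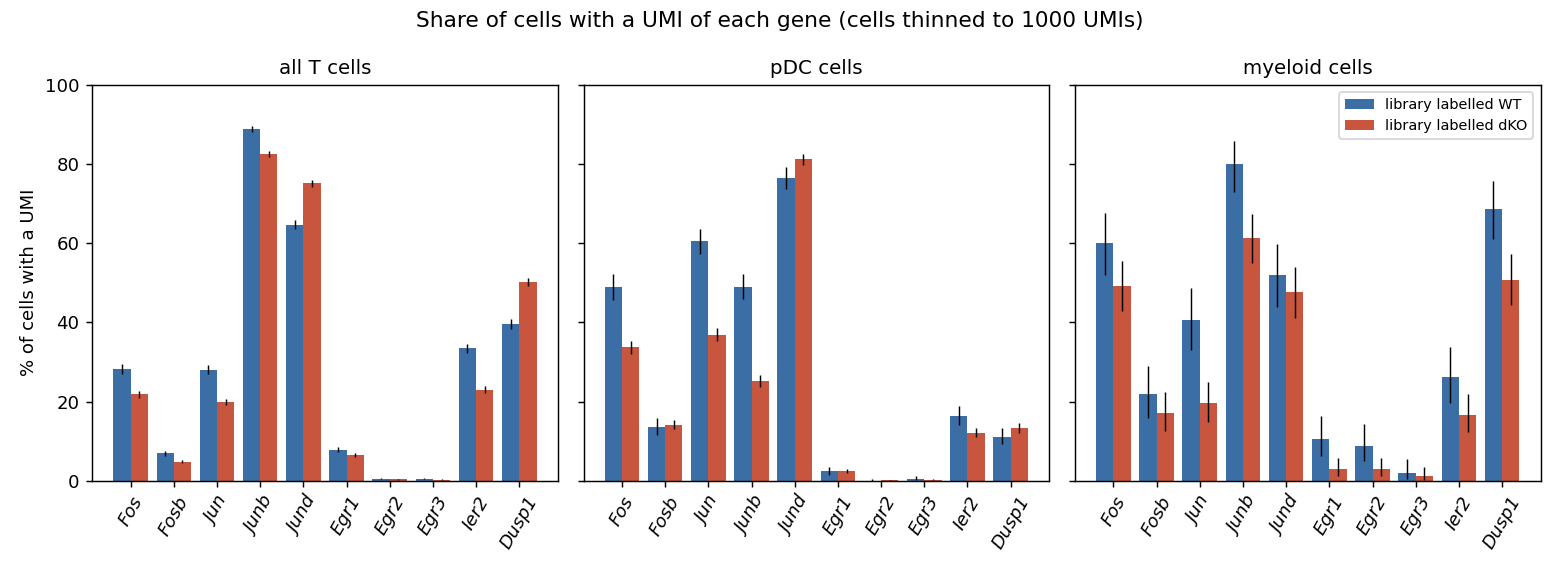
Share of cells with at least 1 UMI of each gene in T cells, pDC and myeloid cells after thinning each cell to 1000 UMIs; bars start at 0, and error bars are 95% exact binomial intervals. Junb is found in 88.9% and 82.6% of T cells but in 49.0% and 25.3% of pDC in the WT and dKO libraries.

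Single cells separated Jun from Junb. Hspa1a and Hspa1b encode the inducible Hsp70 chaperones, and after thinning a UMI of either was found in 27.2% of 5939 WT and 14.2% of 8685 dKO T cells (34.5% and 16.9% before thinning). In WT, Jun was at 895 CPM in T cells with such a UMI and 350 CPM in those without (2.56-fold; log2 1.36, 1.25 to 1.46). In dKO it was at 1362 against 230 CPM (5.92-fold; log2 2.57, 2.47 to 2.66). Fos followed less strongly, at 616 against 382 CPM in WT and 761 against 301 CPM in dKO. Junb went slightly the other way, at 3578 against 4027 CPM and at 2790 against 3014 CPM, although in dKO the direction turned (log2 0.03) when cells were thinned to 2000 UMIs, an alternative added after the data were seen. So within both libraries Jun, and to a smaller degree Fos, was high in the cells with Hsp70 transcripts, and Junb was not. All cells compared had the same 1000 UMIs.

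The rise of Jun was graded. In WT T cells with 0, 1, 2 to 4 and 5 or more Hsp70 UMIs, Jun was at 350, 618, 973 and 1299 CPM. In dKO it was at 230, 1065, 1226 and 2160 CPM. Junb was at 4027, 3654, 3423 and 3749 CPM over the same steps in WT and at 3014, 2746, 2711 and 3031 CPM in dKO, and so did not follow the steps. In pDC of dKO, Jun was at 532, 2504, 3651 and 5258 CPM and Dusp1 at 131, 357, 405 and 484 CPM. Egr1 in those pDC was at 106 CPM with an Hsp70 UMI and 25.3 CPM without. In WT pDC the difference was smaller for Jun (2214 against 1346 CPM), and Fos was not higher with Hsp70 (821 against 970 CPM). Only 8 WT pDC had 5 or more Hsp70 UMIs, and Junb had 0 UMIs in them.

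**Figure D4:**
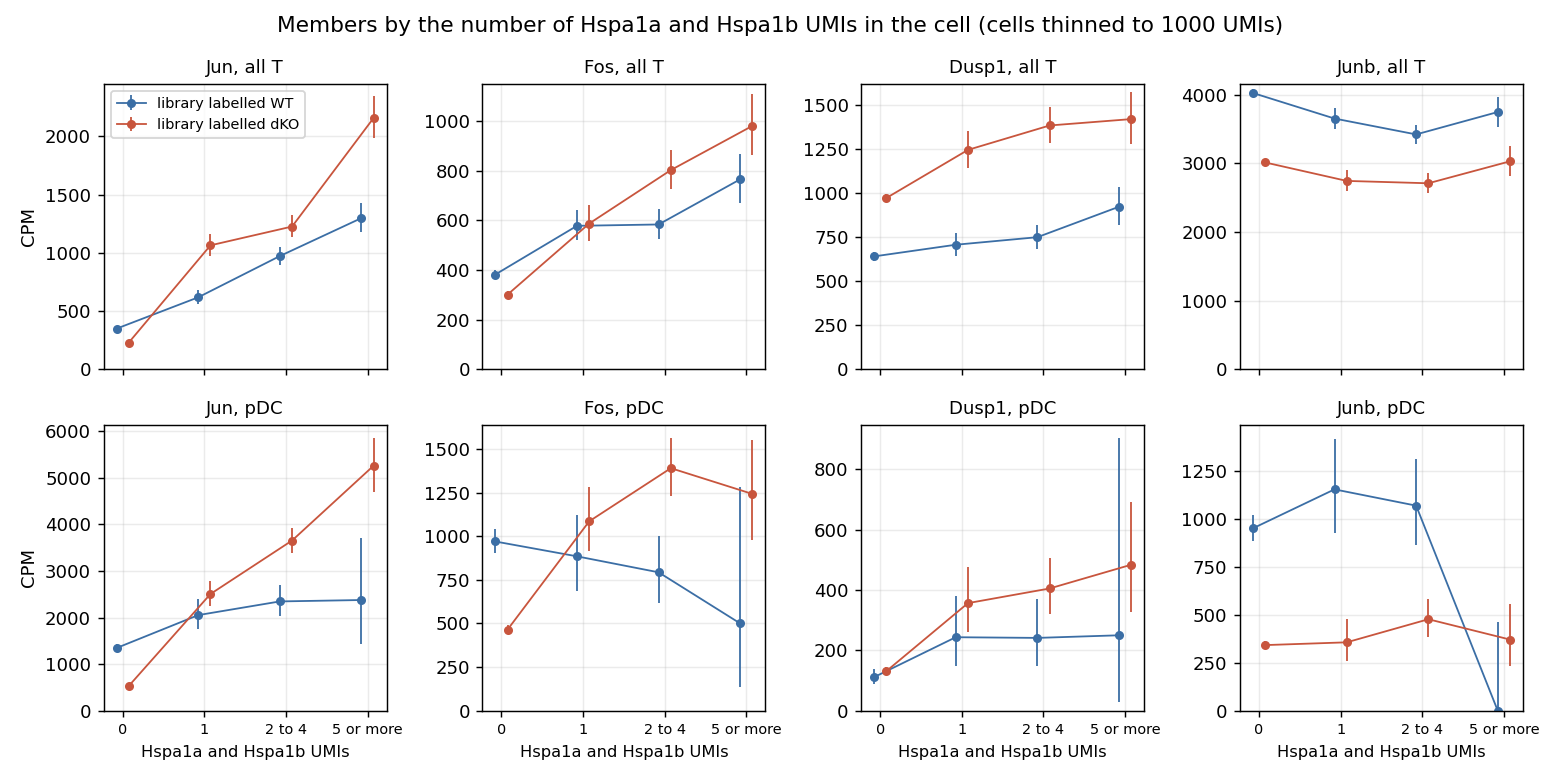
Level of Jun, Fos, Dusp1 and Junb in CPM by the number of Hspa1a and Hspa1b UMIs in the cell, in T cells (top) and pDC (bottom) thinned to 1000 UMIs; points are sums over the cells of a step and bars are 95% Poisson intervals. Jun rises from 230 to 2160 CPM in T cells of the dKO library, while Junb stays between 2711 and 3031 CPM.

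Between the libraries Jun turned direction between these strata in all T cells, Foxp3 cells and pDC, and Fos did so in all T cells and pDC but not in Foxp3 or cytokine cells. In all T cells without an Hsp70 UMI, Jun was lower in dKO (350 and 230 CPM; log2 -0.60, -0.70 to -0.50). In all T cells with one, it was higher in dKO (895 and 1362 CPM; log2 0.61, 0.50 to 0.71). Fos had log2 ratios of -0.34 (-0.44 to -0.25) and 0.30 (0.17 to 0.43) in the same strata. In pDC Jun had log2 ratios of -1.34 without and 0.67 with an Hsp70 UMI, and Fos of -1.06 and 0.62. In Foxp3 cells Jun was at -0.44 and 0.46, whereas Fos was at -0.48 without and -0.06 (-0.49 to 0.39) with an Hsp70 UMI. In cytokine cells Jun was at -0.19 without, with an interval that includes 0 (-0.47 to 0.08), and at 0.74 with one, and Fos was at 0.08 (-0.16 to 0.32) and 0.41. Junb did not turn: it was lower in dKO in both strata of T cells (log2 -0.42 and -0.36) and of pDC (-1.47 and -1.33). The strata rest on a measured value, and the share of cells with an Hsp70 UMI itself differed between the libraries as given above. The part of that in these ratios was not tested.

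Nr4a1 transcripts, found in 39.7% of WT and 59.5% of dKO thinned T cells, went with other members. In T cells with an Nr4a1 UMI, Junb was higher in both libraries (4683 against 3393 CPM in WT, 3330 against 2472 CPM in dKO). So were Egr1 (121 against 83.4 CPM, 108 against 65.7 CPM), Ier2 (546 against 395 CPM, 332 against 256 CPM) and Jund (1443 against 1182 CPM, 2114 against 1510 CPM). Jun was lower in the cells with an Nr4a1 UMI, at 392 against 567 CPM in WT (log2 -0.53, -0.64 to -0.42) and 352 against 448 CPM in dKO (log2 -0.35, -0.45 to -0.25). Fos was nearly level (471 against 429 CPM, 373 against 357 CPM). In dKO pDC Jun was at 574 CPM with and 1218 CPM without an Nr4a1 UMI.

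**Figure D5:**
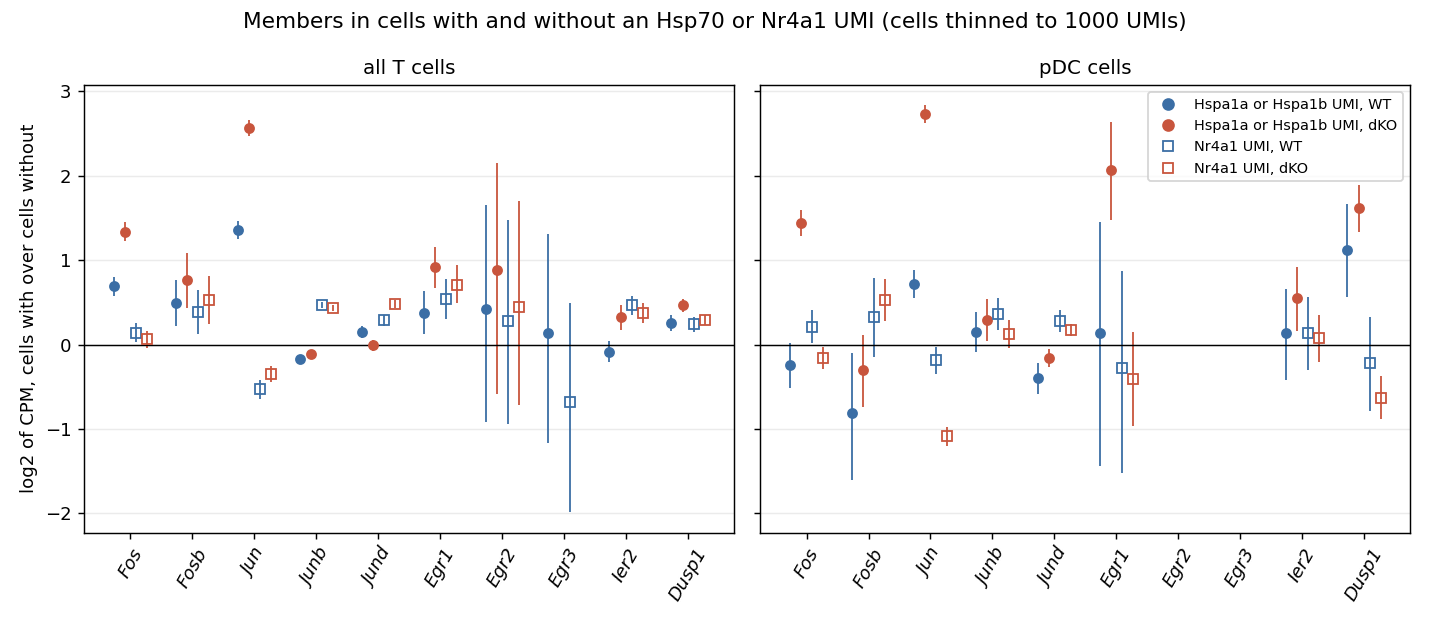
Log2 ratio of CPM in cells with over cells without an Hspa1a or Hspa1b UMI (filled circles) or an Nr4a1 UMI (open squares), for T cells and pDC of each library thinned to 1000 UMIs, with 95% intervals; ratios whose interval spans more than 3 log2 units are not drawn. In T cells Jun lies well above 0 for Hsp70 and below 0 for Nr4a1, and Junb lies on the opposite side of 0 for each, although Junb for Hsp70 in dKO turned to log2 0.03 with cells thinned to 2000 UMIs.

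Members were found together in the same T cell to different degrees. Jun was found in 34.4% of WT T cells with a Fos UMI and in 25.6% of those without, and in dKO in 31.4% against 16.6%. For Fosb the shares were 11.9% against 4.92% in WT and 10.2% against 3.33% in dKO. Ier2 was found in 33.7% of WT T cells with Fos and in 33.3% without, and in dKO in 24.8% and 22.5%. Fos thus marked cells with Jun and Fosb, but hardly those with Ier2. Of the 10 members a thinned T cell held 2.99 in WT and 2.85 in dKO on average, a pDC 2.79 and 2.19, and a myeloid cell 3.71 and 2.69. Across single cells the correlations were weak, and the highest, for Fos and Jun in pDC, was r = 0.29 in both libraries (963 and 3306 cells).

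Other immediate early genes were compared in the same way. Of 23 such genes, 22 were measured in Foxp3 cells, and 6 were lower and 2 higher in dKO by 1.5-fold or more. Of all genes 23.3% passed in that class, 11.2% as higher and 12.1% as lower. Other classes did not all lean the same way. In all T cells 4 were lower and 4 higher of 22 measured, where 16.1% of all genes passed in either direction. The lower and higher counts were 5 and 5 of 22 in other T cells (17.8%) and 3 and 3 of 23 in cytokine cells (18.6%). They were 1 and 4 of 22 in naive-like cells (15.1%) and 10 and 2 of 21 in cycling cells (18.9%). In Foxp3 cells Btg2, an antiproliferative gene, was at 580 and 236 CPM in WT and dKO (2.46-fold lower), and Zfp36, which destabilises AU-rich messages including those of Fos, was at 997 and 444 CPM (2.24-fold lower). The 2 that were higher were Nr4a1 (1085 and 2295 CPM) and Nr4a2 (185 and 441 CPM), while Nr4a3 was at 411 and 320 CPM. The lists that follow are for Foxp3 cells too, where 23.3% of all genes passed in either direction. Among 10 other AP-1 and related leucine zipper genes, 3 of 8 measured were higher and 1 lower, with Maf at 276 and 532 CPM and Batf at 140 and 233 CPM. Jdp2 (25.9 and 38.9 CPM) and Maff (37.8 and 15.5 CPM), the others that passed, lie below the level set for named genes and were named after their values were seen. Of 8 Egr cofactors and upstream factors, 0 of 6 measured passed the fold. Of 8 MAP kinase pathway kinases, 1 of 8 passed it (Mapk3, 22.9 and 54.1 CPM). Among 5 other Dusp genes Dusp10 was at 260 and 128 CPM and Dusp5 at 652 and 654 CPM, and Dusp6, named after its values were seen, at 12.9 and 22.3 CPM. Of 6 genes linked to Egr2 and Egr3 in T cells, 2 of 5 measured were lower (12.1% of all genes), Fasl (53.7 and 14.0 CPM) and Dgka (208 and 129 CPM). Of 12 stress genes, 2 were lower and 1 higher, which is close to the share of all genes (23.3%). Hsph1 was at 237 and 128 CPM, Hspa1a at 233 and 138 CPM, and Hspb1, named after its values were seen, at 7.96 and 25.8 CPM.

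The genes most like each member were taken over the 16 levels of 8 classes in both libraries, among 6517 genes, by Pearson's r of log2(CPM + 10). For Fos this was Zfp36 (r = 0.89), for Jun Rhob (0.85), another immediate early gene, and for Dusp1 Ifrd1 (0.95). For Junb it was Neurl3 (0.95), for Jund Rab6b (0.92), for Egr1 Drap1 (0.93), for Fosb B4galt5 (0.93) and for Ier2 Bin2 (0.91). Egr2 was most like Cd63 (0.97) and Egr3 most like Plk2 (0.92). The 16 points share 2 libraries and 3 lineages, so the values describe these levels only.

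Clone size was read from the T cell receptor libraries, and 4639 WT and 8548 dKO T cells had no paired receptor. In WT, Jun was at 519 CPM in the 1123 cells whose clonotype was seen once, at 200 CPM in the 435 cells of clonotypes with 2 to 9 cells and at 330 CPM in the 375 cells of those with 10 or more. In dKO it was at 277, 226 and 305 CPM (995, 532 and 550 cells), so neither library showed a steady order. Dusp1 went in opposite ways, at 654, 570 and 516 CPM in WT and at 663, 764 and 982 CPM in dKO. Within Foxp3 cells it was at 999, 791 and 617 CPM in WT (101, 16 and 6 cells) and had no steady order in dKO (900, 1312 and 1089 CPM). The class of 10 or more cells held only 18 clonotypes in each library.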

How the data were processed

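Hepatic CD4 T cells were sorted and run on the 10x 5′ v2 platform, with 1 gene expression and 1 T cell receptor library per genotype. The deposited values are raw counts of UMIs per gene and droplet, made by the authors with Cell Ranger (7.0.1 per the matrix header, mm10) and limited to droplets called as cells. Whether intronic reads were counted is not given in the sources used here. Droplets with more than 200 genes and under 5% mitochondrial UMIs were kept, which gave 23437516 and 37794986 UMIs (WT and dKO). Lineages needed 3 or more UMIs of T cell, pDC or myeloid genes and fewer than 3 of the others. Mixed droplets (452 and 1022) and unclassed ones (1973 and 2226) were left out of the classes, and no doublet caller was run.

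UMIs were summed per class and library. Levels have exact Poisson intervals, ratios conditional binomial intervals and shares Clopper-Pearson intervals, all at 95%. UMIs are molecules and not PCR copies, and the intervals cover counting error only. "Passed" means 1.5-fold or more. With 1 library per genotype no test was made. The 10 members and all lists were chosen with earlier results of these data known. Named were all members, Nr4a1, Nr4a2 and Nr4a3, and of each other list up to 4 genes with the largest log2 ratio in Foxp3 cells among genes at 50 CPM or more, plus genes from the 3 most alike to each member, of which the text gives the first. Ratios were tested on simulated data. Alternatives were other scalings (TMM of edgeR 4.0.16 and median of ratios of DESeq2 1.42.0 in R 4.3.3), gates, filters, folds and thinning depths. Python 3.11.15, numpy 2.4.6, scipy 1.17.1 and pandas 2.3.3 were used. Columns of other series numbered 0. Some genes are not reported here and were left out of the lists.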

Additional observations from a re-analysis of the deposited data

Results flagged for a closer look

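Dusp1 moved in opposite directions between the libraries in T cells and in myeloid cells. It was higher in the library labelled dKO in T cells (639 and 971 CPM) and lower in myeloid cells (1582 and 918 CPM), so that the log2 ratios of these classes differed by 1.39. Within T cells it was also lower in cycling cells (485 and 363 CPM). With 1 library per genotype the difference was not tested, and the myeloid classes of the libraries also differed in S100a8 (20.4 and 5298 CPM).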

How the results depend on the processing

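No paired analysis was possible because each genotype has 1 library. Of 1140 ratios of single members under the alternatives, 972 stayed within the interval of the reported value, 168 moved beyond it and 0 changed sign as called values. Of 128 summary values 105 stayed near the reported one (within 1.5 times for counts and shares of genes, within the reported interval for the others). The cause was not tested for those that did not, which follow. TMM scaling, which shifted the Foxp3 over naive-like ratios of WT by 0.18 on the log2 scale, gave 1 member between Foxp3 and cytokine cells in place of 0, and so did averaging each cell's CPM. Median of ratios scaling left 1 member between the libraries in Foxp3 cells in place of 2, and 1 cell per clonotype left 1 in other T cells in place of 2. In cytokine cells 0 in place of 1 passed with each cell's CPM averaged and without the 5% of droplets with the most UMIs. That filter and a stricter lineage gate each gave 1 in naive-like cells in place of 0. For cycling over other T cells it left 2 of 5, and a wider Foxp3 class left 3. It also lowered the excess of Jun in dKO T cells with Fos from 14.8 to 12.5 percentage points. Without droplets holding an Hspa1a or Hspa1b UMI, an alternative chosen after seeing the data, 0 members passed in Foxp3 cells, 2 in naive-like cells and 1 between Foxp3 and cytokine cells. A fold of 2 called 8.82% of all genes in Foxp3 cells, 6.72% in T cells and 2.94% in pDC, and 5, 4 and 4 of the other immediate early genes. With no filter on low counts the shares of all genes were 35.7%, 33.9% and 27.9%. Depth limits Egr2 and Egr3 most: 1 UMI in WT myeloid cells was worth 2.26 CPM. Pooled mice, preparation and genotype cannot be told apart.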

Other observations

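Droplets that reached no lineage gate (1973 in WT and 2226 in dKO) also carried the members. Fos was at 642 CPM in WT and 546 CPM in dKO there, Jun at 655 and 510 CPM, Egr1 at 133 and 103 CPM and Junb at 4147 and 3078 CPM. Fos, Jun and Egr1 were thus above their T cell levels in both libraries. Droplets with UMIs of more than 1 lineage had Fos at 715 and 498 CPM and Jun at 796 and 597 CPM, between the T cell and pDC levels in WT and in dKO.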
